A study of Mus musculus with 2 samples.

Results

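The insulin-like growth factor (IGF) family was followed here through 10 genes: the ligands Igf1 and Igf2, their receptor Igf1r, and the binding proteins Igfbp1 to Igfbp7. Members were chosen by name, and their probes were the non-control probes whose RefSeq accession belongs to one of these genes. All 10 genes had a probe, 13 probes in all, out of 22911 named genes and 56604 probes on the array. The tissue was whole pancreas of C57BL/6 male mice aged 5 weeks, with 1 array of total RNA for WT and 1 array for Nrdc-cKO. Nrdc-cKO stands for Ptf1a-Cre; Nrdcflox/flox, in which Cre driven by Ptf1a, which acinar cells and their progenitors use as a transcription factor, recombines the floxed alleles of the metalloendopeptidase nardilysin. The labels say no more of the WT genotype than its name, and cells of the gland that never made Ptf1a keep nardilysin in such a model. Whether islet and duct cells were recombined here is not in the labels. The labels do not say whether an array holds RNA of 1 animal or of several.

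IGF1 and IGF2 are small secreted peptides related to insulin. They act through IGF1R, a receptor tyrosine kinase that recruits insulin receptor substrates and turns on the PI3K, AKT and mTOR pathway, which drives growth and survival. Secreted binding proteins hold the ligands in blood and in the matrix, and proteases that cut these proteins release the ligands. In the pancreas the family is known for its part in islet growth, in regeneration after injury and in fibrosis.

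With 1 array per group there was no error across animals and no test, and each difference describes these 2 arrays. The 75th percentile of the processed signal was 70.8 in WT and 227 in Nrdc-cKO, a ratio of 3.21. Each array was divided by its own value, so a log2 difference of 0 means that a gene moved with this percentile. The targeted gene, Nrdc, stood at a log2 difference of -3.21, measured by 1 probe. Which part of the gene is deleted is not in the labels, so this probe may or may not lie in it. The acinar markers that define the tissue were all well above background on both arrays, 12 of 12. Of the 13001 genes measured on both, 12.8% were higher in Nrdc-cKO by 2-fold or more after scaling and 17.3% were lower by as much, and the median gene stood at -0.18.

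Of the 9 members measured on both arrays, 5 were higher in Nrdc-cKO by 2-fold or more, against 12.8% of all genes, and all 5 were binding proteins (Igfbp2, Igfbp4, Igfbp5, Igfbp6 and Igfbp7). Only Igf1 was at least 2-fold lower, against 17.3% of all genes, and that call did not hold under other scalings. Igf2, Igf1r and Igfbp3 lay within 2-fold. The median over the 9 members was 1.08, beside -0.18 for all genes, and Igfbp1 was well above background on the Nrdc-cKO array only. Before scaling, the signal of all 13 probes was higher on the Nrdc-cKO array, as was that of 92.3% of all probes.

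**Figure D1:**
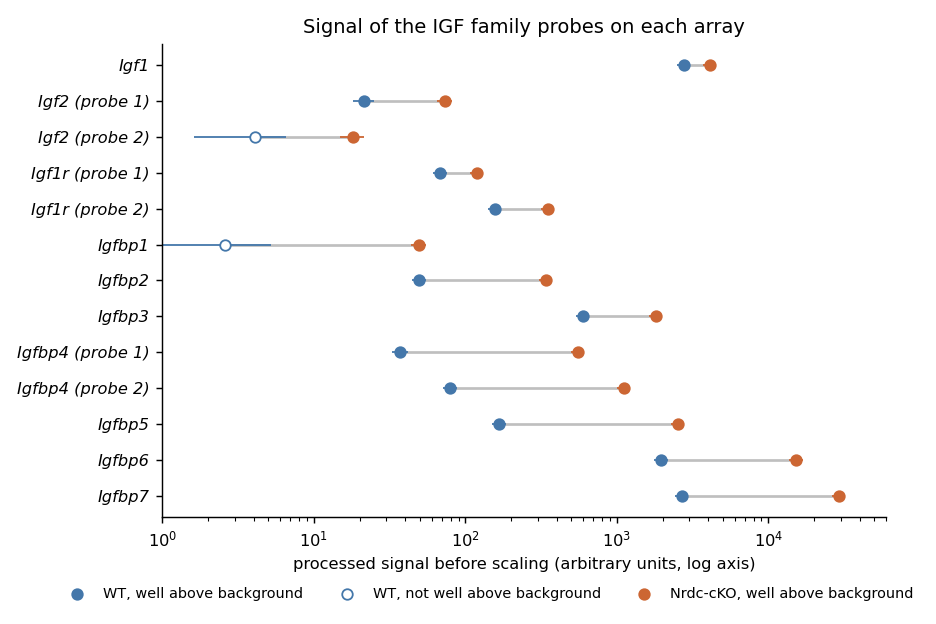
Processed signal of the 13 probes of the IGF family on the WT array (blue) and the Nrdc-cKO array (orange), before scaling between arrays, on a log axis in arbitrary units, 1 array per group. Bars give the scanner software's error for the spot, open points were not well above background, and the bar of Igfbp1 on the WT array runs past the left edge. Every probe was brighter on the Nrdc-cKO array, and the gap was narrowest for Igf1 (2754 against 4118.5) and wide for Igfbp5 (168 against 2529).

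Igf1 encodes the ligand that growth hormone induces in liver and that many tissues also make locally. Its probe had a processed signal of 2754 (software error 275) in WT and 4118.5 (software error 412) in Nrdc-cKO. The ratio of these signals was the smallest of the family and below that of the 75th percentile, so the scaled log2 difference was -1.10, with a software error of 0.20. A lower difference was found for 14.7% of genes. The value lay just past the 2-fold line and was between -0.94 and -0.59 under the 6 other scalings and background corrections apart from the spike-in scaling, none of which kept it past 2-fold. Igf1 stayed below the median gene in all 8 of these settings, with distances of -0.92 to -0.52 on the log2 scale. The main scaling, the 75th percentile over detected probes, the authors' value table and spike-in scaling differ only by a constant per array. The distance of Igf1 is therefore the same, -0.92, in each of those by construction. With spike-in scaling, which raises every gene by 1.88, the difference itself was 0.78.

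Igf2 encodes the ligand of fetal growth, an imprinted gene that is mostly silenced in mouse tissues after birth. Its first probe gave a signal of 21.5 in WT and 73.2 in Nrdc-cKO, for a scaled log2 difference of 0.08 with a software error of 0.27. The second probe read 4.08 in WT, not well above background, and 18.1 in Nrdc-cKO. Both probes were dim, and the difference of the first stayed within its software error. With the normexp correction and 75th percentile the difference was -0.38, and in the authors' value table it was 0.58.

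Igf1r encodes the receptor for both ligands. Its 2 probes read 68.4 and 157 on the WT array, and 119 and 348 on the Nrdc-cKO array. The scaled differences of the probes were -0.89 and -0.53, with a mean of -0.71, which is 1.64-fold lower and short of the threshold. A lower difference was found for 26.5% of genes. Relative to the median gene, Igf1r lay between -0.62 and -0.36 in the 8 settings, several of which share this distance by construction. With spike-in scaling the difference of Igf1r itself was 1.17.

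The members that stood higher were all binding proteins. The bases before the annotated start of 5 of them are shown because these genes were higher on the Nrdc-cKO array or, for Igfbp1, were detected there only, and because their listed start is the outer end of the gene. Each run gives the 250 bases before the start in the gene's direction, from RefSeq on build GRCm38.p6, with matches to the motifs searched in capitals. The windows are chr11:7197537-7197786 on the plus strand, chr1:72824230-72824479 on the plus strand, chr1:72874866-72875115 on the minus strand, chr15:102143936-102144185 on the plus strand and chr5:77408046-77408295 on the minus strand.
Igfbp1: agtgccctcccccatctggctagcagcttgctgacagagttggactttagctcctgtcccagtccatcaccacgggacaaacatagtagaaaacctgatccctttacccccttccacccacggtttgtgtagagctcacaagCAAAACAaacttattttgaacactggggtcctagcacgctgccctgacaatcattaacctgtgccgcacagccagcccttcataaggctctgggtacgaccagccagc
Igfbp2: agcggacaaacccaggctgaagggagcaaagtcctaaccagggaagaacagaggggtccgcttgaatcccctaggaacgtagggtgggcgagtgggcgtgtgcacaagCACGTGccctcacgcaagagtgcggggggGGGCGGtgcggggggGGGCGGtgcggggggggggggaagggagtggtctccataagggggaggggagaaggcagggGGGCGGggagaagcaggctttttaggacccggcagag
Igfbp5: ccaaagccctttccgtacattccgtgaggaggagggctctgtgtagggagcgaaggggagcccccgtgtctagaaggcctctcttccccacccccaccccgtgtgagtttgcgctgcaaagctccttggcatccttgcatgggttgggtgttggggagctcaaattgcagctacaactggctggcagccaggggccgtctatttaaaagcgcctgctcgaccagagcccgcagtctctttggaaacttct
Igfbp6: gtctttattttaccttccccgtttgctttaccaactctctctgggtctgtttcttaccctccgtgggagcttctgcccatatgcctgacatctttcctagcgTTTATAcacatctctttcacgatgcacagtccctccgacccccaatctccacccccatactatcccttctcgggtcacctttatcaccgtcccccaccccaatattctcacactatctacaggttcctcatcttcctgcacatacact
Igfbp7: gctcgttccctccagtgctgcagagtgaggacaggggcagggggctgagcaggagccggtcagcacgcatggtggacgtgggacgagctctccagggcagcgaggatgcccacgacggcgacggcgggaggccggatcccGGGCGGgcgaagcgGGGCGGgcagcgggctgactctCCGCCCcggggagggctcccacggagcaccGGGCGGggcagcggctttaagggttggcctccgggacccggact

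No motif searched was present in all 5 of these windows. Motifs were matched on both strands in the 14 listed windows of all 10 members and in all 32851 windows of the table. GGGCGG (GC box), held by 32.7% of all windows, occurred 3 times before Igfbp2 and 4 times before Igfbp7, and also before Igf1r and Igf2. CAAAACA, the core of the insulin response element known from the human and rat IGFBP1 promoters, is held by 5.56% of all windows and, among the members, only by that of Igfbp1, from base 108 to base 102 before the start. The letters of the TATA box, TATAAA, held by 12.4% of all windows, were found before Igfbp4 and Igfbp6. The match lay from base 28 to base 23 before the listed start of Igfbp4. Before Igfbp6 it lay from base 148 to base 143 and on the opposite strand. The E-box CACGTG, held by 6.02%, was found before Igfbp2. The AP-1 site, TGA and TCA with any base between them (6.75% of all windows), was found before Igf1 and in the second listed window of Igfbp2, which is not shown. These matches are of letters only, and the window of Igfbp5 had none of them.

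Igfbp5 encodes a binding protein that adheres to the extracellular matrix. Its signal was 168 in WT and 2529 in Nrdc-cKO, a ratio of 15.1 before scaling. The scaled log2 difference was 2.23 (4.69-fold higher), with a software error of 0.21. It had the highest difference of the 9 members measured on both arrays, beside Igfbp1 with only a bound, and 97.4% of all genes had a lower one. The difference lay between 2.12 and 2.73 under the 6 alternatives.

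Igfbp4 encodes a binding protein that mainly restrains IGF action and that the protease PAPP-A cuts. Its 2 probes read 37.0 and 79.5 in WT and 553 and 1116 in Nrdc-cKO. Their scaled differences of 2.22 and 2.13 were 0.09 apart, and their mean was 2.17 (4.51-fold higher). Igfbp4 and Igfbp5 were the 2 members past 4-fold, which 3.73% of all genes were. The difference of Igfbp4 was 1.66 to 2.67 under the 6 alternatives.

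Igfbp7 encodes a secreted protein with low affinity for IGFs that is found in the vessel wall and matrix. Its signal was 2697 in WT and 29151 in Nrdc-cKO. The scaled difference was 1.75 (3.36-fold higher, software error 0.20), and 94.7% of genes had a lower one. It was larger in each of the 6 alternatives, between 1.91 and 2.36.

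Igfbp6 encodes a binding protein that prefers IGF2 over IGF1. The signal was 1964 in WT and 15276 in Nrdc-cKO, for a scaled difference of 1.28 (2.42-fold higher). Under the 6 alternatives it lay between 1.44 and 1.82. Igfbp2, which encodes a main circulating binding protein made in liver, read 49.7 and 338, for a scaled difference of 1.08 (2.12-fold higher). That call was the least secure of the 5, since with normexp the difference was 0.75 with the 75th percentile and 0.72 with quantile scaling, below 2-fold.

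Igfbp3 encodes the main carrier of IGFs in blood, in a complex with the acid-labile subunit. Its signal was 596 in WT and 1801 in Nrdc-cKO, a ratio of 3.02 that was close to that of the 75th percentile. The scaled log2 difference was -0.09 with a software error of 0.20. Igfbp3 was the binding protein measured on both arrays that lay within 2-fold, with 0.07 to 0.41 under the 6 alternatives and 1.80 with spike-in scaling.

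Igfbp1 encodes a binding protein that liver makes in fasting and that insulin represses. Its probe read 2.58 (software error 2.59) in WT, not well above background, and 49.6 (software error 5.70) in Nrdc-cKO. Set against the lowest signal well above background on the WT array, it was at least 1.36-fold higher. Of the 2834 genes that only the Nrdc-cKO array detected, 22.2% had a bound of at least 2-fold, and Igfbp1 was not among them. Only the WT array detected 200 genes.

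In the RefSeq gene order Igfbp2 is next to Igfbp5 on chromosome 1, and Igfbp1 is next to Igfbp3 on chromosome 11, each pair on opposite strands and end to end. The members of the first pair were both higher, at 1.08 and 2.23. In the second pair Igfbp3 lay at -0.09 and Igfbp1 had only a bound. Igf2 lies on chromosome 7 between H19 and Ins2. H19, an imprinted non-coding RNA, stood at -0.57, within 2-fold as Igf2 was, and Ins2, an insulin gene of beta cells, at 2.77. With spike-in scaling H19 was at 1.31, Igf2 at 1.97 and Ins2 at 4.65.

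**Figure D2:**
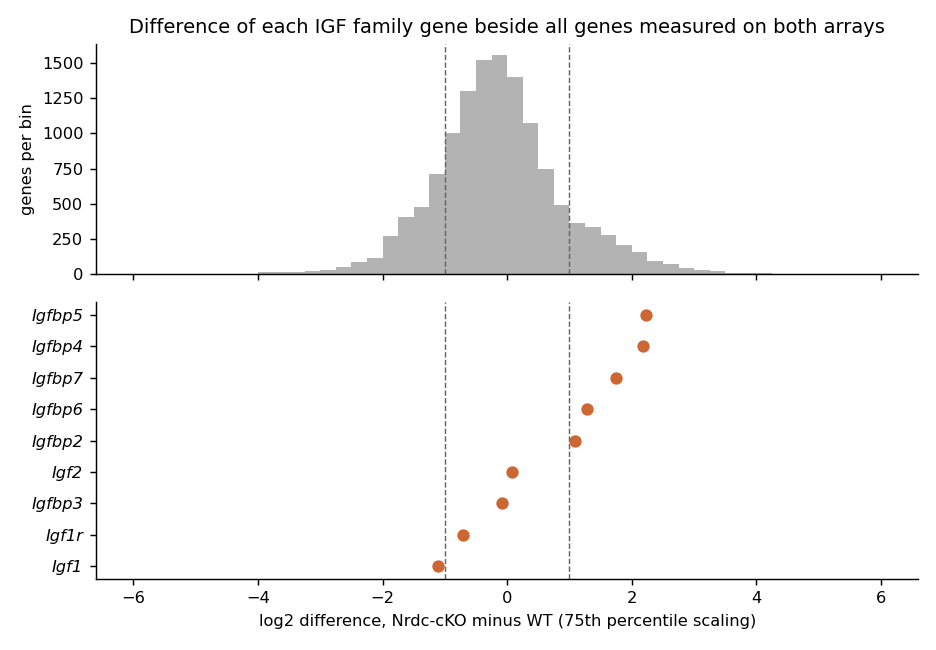
Upper part, number of genes per bin of 0.25 in the log2 difference, Nrdc-cKO minus WT, for the 13001 genes measured on both arrays; lower part, the same difference for the 9 family members measured on both, with 1 array per group. Dashed lines mark 2-fold, and values beyond 6 are in the outer bins. Igfbp5, Igfbp4, Igfbp7, Igfbp6 and Igfbp2 lie right of the right-hand line and Igf1, at -1.10, just left of the other.

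The scaling changed the size of these differences. The median log2 difference of all genes, -0.18 with the 75th percentile over all probes, was -0.02 with that percentile over detected probes, -0.07 with quantile scaling, -0.01 with loess, -0.06 with normexp and 75th percentile, -0.04 with normexp and quantiles, 0.31 in the authors' value table and 1.70 under spike-in scaling. Higher genes were 42.5% of all genes past 2-fold in the main scaling, 48.2% with quantile scaling, 50.5% with loess, 53% with detected probes, 52.1% and 58% with normexp, 72.9% in the value table and 98.9% with spike-in scaling. Measured from the median gene in each setting, Igfbp4 lay 1.70 to 2.35 above it, Igfbp5 2.16 to 2.50, Igfbp6 1.46 to 1.88, Igfbp7 1.93 to 2.37 and Igfbp2 0.76 to 1.27. Igfbp3 lay 0.09 to 0.40 above it, and Igf2 between -0.32 and 0.26. Among all genes, those past 2-fold higher and lower were 15.1% and 13.4% with detected probes, 13.8% and 14.8% with quantile scaling, and 14.6% and 14.3% with loess, where 5 members were higher and 0 lower each time. They were 9.58% and 8.81% with normexp and 75th percentile, and 9.01% and 6.51% with normexp and quantile scaling, with 4 members higher and 0 lower. In the value table they were 22.2% and 8.26%, with 5 members higher and 0 lower, and under spike-in scaling 79.5% and 0.908%, with 8 members higher and 0 lower. These 8 settings reuse the same 2 arrays and add no replication. The main scaling, the percentile over detected probes, the value table and spike-in scaling differ only by a constant per array. Distances from the median gene therefore cannot differ among those.

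**Figure D3:**
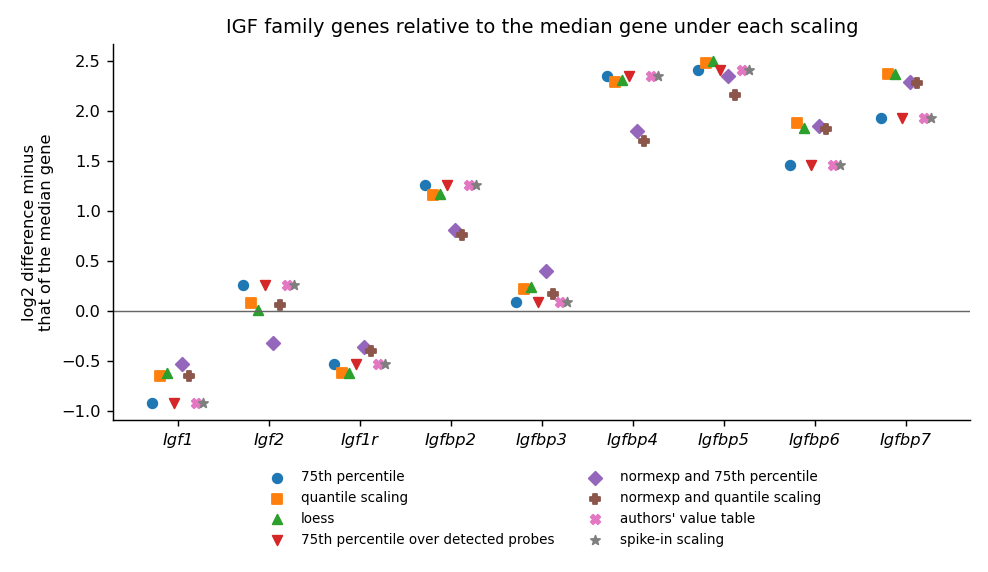
Log2 difference, Nrdc-cKO minus WT, of each family member minus that of the median gene, under 8 scalings and background corrections of the same 2 arrays, marked by symbol and colour. Igf1 and Igf1r lie below the line at 0 in all 8, the 5 higher binding proteins above it in all 8, and Igf2 on both sides of it.

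Genes that act with the family were taken from lists. Among other receptors, adaptors and carriers, 4 of 10 measured genes were past 2-fold higher and 2 past 2-fold lower. The shares of all genes were 12.8% and 17.3%. The median of the list was -0.02. The insulin receptor Insr stood at -0.44 and Igf2r, the receptor that clears IGF2, at -0.03, both within 2-fold. The insulin receptor substrates Irs1 (2.08) and Irs2 (1.19) were higher, as were Grb14, an adaptor that inhibits the insulin receptor, at 2.84 and the orphan receptor Insrr at 1.79, whose 2 probes were far apart (0.37 and 3.22). Igfals, the acid-labile subunit that holds IGFs and IGFBP3 in the circulating complex, was lower at -1.55, short of 2-fold in 2 of the 6 alternatives (-0.73 at the nearest to 0), and 0.33 with spike-in scaling.

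Among proteases that cut IGFBPs and their inhibitors, 7 of 14 measured genes were past 2-fold higher and 3 past 2-fold lower. The shares of all genes were 12.8% and 17.3%. The median of the list was 0.98. Only the Nrdc-cKO array detected 6 others, as it did 2834 of all 22911 named genes. Of the 6, 4 had a bound of at least 2-fold, against 22.2% of those 2834. Pappa, the protease of IGFBP4 and IGFBP5, stood at 1.69, past 2-fold in 4 of the 6 alternatives and at 0.21 in the lowest. Stc2, a secreted inhibitor of PAPP-A, was lower at -1.43, short of 2-fold in 2 of the 6 alternatives (-0.89 at the nearest to 0), and was 0.46 with spike-in scaling. The matrix metalloproteinase Mmp2 was at 2.25 and the secreted serine protease Htra1 at 2.02, while the kallikrein Klk1, an acinar product, was at -2.53. Mmp2 and Klk1 were known from earlier results of these data when the lists were made.

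Of the growth hormone axis upstream of Igf1, 1 of 9 measured genes was past 2-fold higher and 0 lower. The shares of all genes were 12.8% and 17.3%. The median of the list was 0.38. The growth hormone receptor Ghr stood at -0.64 on 3 probes, within 2-fold, and at 1.24 with spike-in scaling. Socs3, a feedback inhibitor of cytokine receptors, was the higher one at 2.14. Of PI3K, AKT and mTOR genes, 2 of 21 were higher and 3 lower, beside 12.8% and 17.3% of all genes, with a median of -0.20, close to the -0.18 of all genes. The lower calls of Akt1 (-1.13) and Rps6kb1 (-1.07), kinases of the pathway named after their values were seen, held in 0 of the 6 alternatives. The catalytic subunit Pik3ca was higher at 1.62, and Eif4ebp1, a repressor of translation that mTOR inactivates, was lower at -1.61, or 0.27 with spike-in scaling.

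Among the neighbours of Igf2, imprinted growth genes and Igf2 mRNA-binding proteins, 3 of 6 measured genes were higher and 0 lower, with a median of 0.63. The shares of all genes were 12.8% and 17.3%. Beside Ins2, the higher ones were the membrane protein Dlk1 (1.79) and the cell cycle inhibitor Cdkn1c (1.11), both imprinted genes. Secreted relatives that carry an IGFBP-type domain had a median of 1.27, with 4 of 6 higher and 0 lower, beside the same shares. The higher relatives included the matricellular protein Cyr61 (1.76), the protease Htra3 (1.39) and the transmembrane protein Crim1 (1.34, with 0.84 in the lowest alternative).

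**Figure D4:**
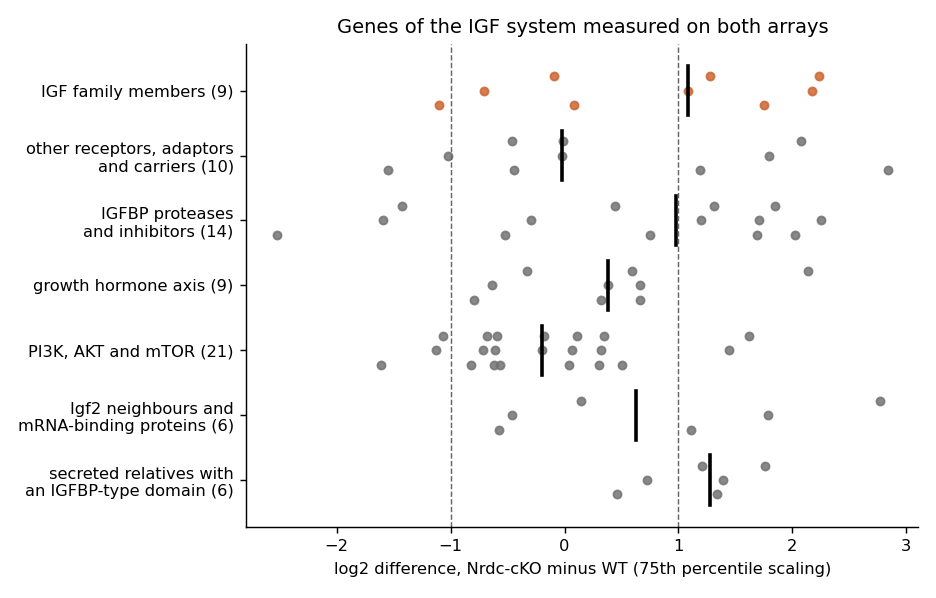
Log2 difference, Nrdc-cKO minus WT, of each gene measured on both arrays in the IGF family (orange) and in 6 lists of genes that act with it (grey), with the number measured in brackets, the list median as a black bar and dashed lines at 2-fold; 1 array per group and no error across animals. The family (median 1.08), the proteases (0.98) and the secreted relatives (1.27) lie to the right, while the PI3K, AKT and mTOR genes (-0.20) lie about the median gene.

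In whole tissue, fewer cells of a type and less RNA per cell cannot be told apart, and markers of several cell types moved beside the binding proteins. Of all genes, 12.8% were past 2-fold higher and 17.3% past 2-fold lower. Fibroblast and stellate cell markers, from cells that secrete matrix and binding proteins, were past 2-fold higher in 10 of 11 measured genes and past 2-fold lower in 0, had a median of 1.78, and their summed signal, each array in units of its 75th percentile, was 230 in WT and 851 in Nrdc-cKO. The collagen-binding proteoglycan Lum (2.33) and the receptor Pdgfra (2.21) had the highest differences, and Des was not well above background on the WT array. The median of the 6 measured binding proteins was 1.51. The part of these cells in the binding protein values was not tested.

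Smooth muscle and pericyte markers were higher in 4 of 6 and lower in 1, beside 12.8% and 17.3% of all genes, the shares for each list here. Their median was 1.70, while their sum was 104 in WT and 68.2 in Nrdc-cKO. Smooth muscle myosin, Myh11 (2.13), and smooth muscle actin, Acta2 (1.91), had the largest differences. Cnn1 and Des were not well above background on the WT array. The lower one was the adhesion molecule Mcam (-1.55), singled out with its value known. Mcam made up most of the WT sum, at a scaled log2 level of 6.53 in WT and 4.98 in Nrdc-cKO. Endothelial markers were higher in 4 of 12 and lower in 0, with a median of 0.77 and sums of 28.1 and 50.9. Vwf (1.97) and the junction protein Cldn5 (1.80) led them, and all 12 were detected on both arrays. Mesothelial markers were higher in 3 of 6 and lower in 0, with a median of 0.997 and sums of 14.0 and 20.4, led by Wt1 (1.32) and Lrrn4 (1.205), with Gpm6a and Bnc1 not well above background on the WT array. Whether any of these cells accounts for a member was not tested.

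Macrophages are known to make Igf1 in injured tissue. Beside each list here stand the shares of all genes, 12.8% higher and 17.3% lower. Of 11 measured macrophage markers 10 were higher and 0 lower, with a median of 2.18 and sums of 29.1 and 91.1, led by Ms4a7 (3.21) and Aif1 (2.98), and Fcgr1 was not well above background on the WT array. Acinar markers were lower in 12 of 12, with a median of -1.81 and sums of 44987 and 11858, and the lipase Pnlip (-4.25) and the transcription factor Ptf1a (-2.72) had the largest differences. The acinar median was between -1.65 and -0.13 under the 6 alternatives and 0.07 with spike-in scaling. Pnlip, Ptf1a and Bhlha15, a transcription factor of secretory cells, were the acinar markers that stayed past 2-fold in all 6. The enzyme genes Cpa1, Cela2a, Cela3b, Ctrb1 and Prss2, named after their values were seen, were below 0 in only 4 of the 6. They were past 2-fold lower in 3 of the 6. The highest values of these enzyme genes in the 6 alternatives were 0 to 0.099. Islet markers were higher in 10 of 11 and lower in 0, with a median of 3.93 and sums of 382 and 2956, led by Ppy (4.59) and Chgb (4.58), and Neurod1 was not well above background on the WT array. The part of macrophages, acinar or islet cells in the values of Igf1, Igf1r and the binding proteins was not tested.

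For each list here the shares of all genes were 12.8% higher and 17.3% lower. Adipocyte markers were higher in 4 of 6 and lower in 1, which was Lep (-1.87), named after its value was seen. Their median was 1.78, and only the Nrdc-cKO array detected 6 others. Their sum was 22.7 in WT and 502 in Nrdc-cKO, with Plin4 at 6.40 and Dgat2 at 4.76, and Adipoq, Cfd, Plin1, Cidec, Retn and Car3 were not well above background on the WT array. Secretory genes typical of hepatocytes, the main source of circulating IGF1, IGFBP1 and the acid-labile subunit, were higher in 4 of 6 and lower in 1, with a median of 2.89 and sums of 19.02 and 323, led by Hp (7.99) and Tf (3.84). Of these, Serpina1a was the lower one (-2.23), named after its value was seen. Apoa1 and Fgb were not well above background on either array and Fga and Ahsg not on the WT array. The mean scaled log2 level of the Fga probes was nonetheless lower in Nrdc-cKO (-4.98) than in WT (-3.90). Ductal markers were higher in 3 of 10 and lower in 2, beside 12.8% and 17.3% of all genes. Their median was 0.51 and their sums 141 and 481, with the largest differences for Ambp (3.71) and Spp1 (2.88). The lower ones, named after their values were seen, were the mucin Muc1 (-2.25) and the chloride channel Cftr (-1.59, past 2-fold in 5 of the 6 alternatives). The part of adipocytes, hepatocyte genes and ducts in the family's values was not tested.

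**Figure D5:**
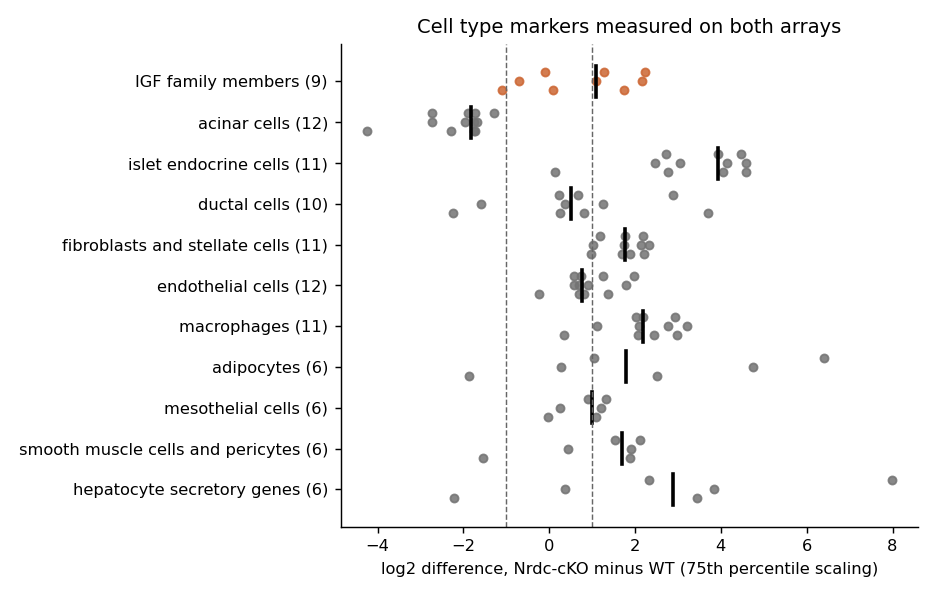
Log2 difference, Nrdc-cKO minus WT, of each marker measured on both arrays, by cell type (grey), beside the IGF family (orange), with the number measured in brackets, the list median as a black bar and dashed lines at 2-fold; 1 array per group and no error across animals. Acinar markers lie left of the left-hand line (median -1.81), and fibroblast (1.78), macrophage (2.18) and islet (3.93) medians right of the other.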

How the data were processed

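Cy3-labelled cRNA of 1 WT and 1 Nrdc-cKO pancreas sample was hybridised to Agilent 1-colour mouse arrays, both on 1 slide and in 1 scan per the file headers. The authors' deposited scanner files give a processed intensity per spot, corrected for background and spatial trend by Agilent Feature Extraction (12.0.3.1 per the file headers, 11.5.1.1 per the submitters' processing notes), with its error, the median intensity, the local background and flags. The authors' deposited value table holds these intensities times 1 constant per array (4.37 for WT, 1.92 for Nrdc-cKO), on a linear scale without centring and in the same direction, with medians of 42.5 and 66.0. The choice of these constants is not explained in the labels.

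Of 59305 non-control spots, the software set 46.3% (WT) and 60.3% (Nrdc-cKO) well above background, and 0 were saturated. Outlier spots (80 and 74) were left out. Processed signals were put on the log2 scale, averaged over repeat spots, and set to each array's 75th percentile over non-control probes. A probe was taken as detected where a share of 0.5 or more of its spots was so marked. A gene's value is the mean over those of its probes that both arrays detected, and calls were made at a log2 difference of 1.0, or 2-fold. A gene detected on 1 array only has a bound, computed against its own signal on the other array or the lowest detected signal there, whichever was higher. Probes were named by RefSeq accession without version through the GRCm38.p6 gene table (32993 of 35885 matched), while the array design cites mm9, so only the promoter windows carry coordinates.

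The software error is the scanner program's own estimate, carried to the log2 difference. Repeat spots of 291 probes had a median SD of 0.032 in that difference. Neither covers animals, dissection or labelling. The gene summary was tested on simulated data. Members and lists were chosen with earlier results of these data known. All 10 members are named. Of each pathway list the text names the 3 largest differences past 2-fold whose probes share a sign, plus Igf2r, Insr, Irs1, Irs2, Igfals, Ghr, Pappa, Stc2, H19 and Ins2, and of each marker list the 2 largest, and other markers where they were not detected. Mcam, Lep, Serpina1a, Bhlha15, Cpa1, Cela2a, Cela3b, Ctrb1, Prss2, Muc1, Cftr, Akt1 and Rps6kb1 were named after their values were seen. A gene that this rule names is not reported here. Alternatives used limma 3.58.1 in R 4.3.3 for normexp (offset 50, on the median signal), quantile scaling and loess, and 8 spike-in probes for spike-in scaling. The main steps ran in Python 3.11.15.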

Additional observations from a re-analysis of the deposited data

How the results depend on the processing

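Each group had 1 array, so no replicate could be left out. No paired analysis was possible because there was 1 array in either group. The higher calls of Igfbp4, Igfbp5, Igfbp6 and Igfbp7 held in every scaling and background correction run. Members past 2-fold higher (5 of 9) became 8 of 9 under spike-in scaling, 3 of 6 for bright probes and 2 of 9 at 4-fold. The shares of all genes were 12.8%, 79.5%, 7.1% and 3.73%, in that order. Members past 2-fold lower (1) became 0 with the 75th percentile over detected probes, quantile scaling, loess, spike-ins, either normexp setting, the value table or a 4-fold threshold, and 2 at 1.5-fold. Igf1 turned to 0.78 under spike-in scaling, which by construction adds 1.88 to each gene. The member median (1.08) became 1.25 when detected probes set the 75th percentile, 2.97 with spike-ins, 0.75 and 0.72 with normexp (75th percentile, then quantile), 1.58 in the value table, 1.18 without the filter on dim probes (10 members) and 0.59 for bright probes (6 members). The 1666 genes past 2-fold higher became 10331 with spike-ins, 2888 in the value table, 2617 at 1.5-fold and 485 at 4-fold, each of 13001. They were 3108 of 22911 without the filter (13.6%) and 560 of 7885 for bright probes (7.1%). The 2252 genes past 2-fold lower became 118 with spike-ins, 1146 and 847 with normexp (75th percentile, then quantile) and 1074 in the value table. At 1.5-fold they were 4065 and at 4-fold 390, each of 13001. Without the filter they were 8013 of 22911 (35%), and for bright probes 1472 of 7885 (18.7%). Spike-in scaling, the value table and the percentile over detected probes shift all genes alike, and the filters and thresholds also act by construction. For the other settings the cause was not tested. Signal over background limits Igfbp1 and the second Igf2 probe.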
